A study of Mus musculus with 8 samples.

Results

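miR-199a-3p and miR-214 are 2 of the 381 assays on the TaqMan Array Rodent MicroRNA A Cards run on total RNA from mouse liver, and were taken by assay name, with earlier results of these data known. miR-214 and 1 of the gene copies of miR-199a-3p are processed from the same noncoding host transcript, and both are known as miRNAs of mesenchymal cells, among them the hepatic stellate cells. Each card carries a quantitative PCR assay per well, and its readout is the threshold cycle (Ct), the PCR cycle in which fluorescence first passes a set limit. Each cycle fewer means roughly 2-fold more starting template. The mice were females of the strain labelled C57B6, 4 weeks of age when treatment began. The control group was labelled as not treated, and whether these mice received corn oil was not given in the sources used here. The other 3 groups were injected intraperitoneally, biweekly, with carbon tetrachloride (CCl4), a hepatotoxin used to model hepatic fibrosis, diluted in corn oil, for 1, 4 or 8 weeks. The dose was 1 mg/kg in the labels and 1 ml/kg in the study's methods. Each of the 4 groups had 2 cards. The series text speaks of 4, 3 and 2 mice at 1, 4 and 8 weeks, and how these relate to 2 cards per group is not given in the sources used here. Whether the 2 replicates of a group came from separate mice is not stated either, so the p-values measure only the spread between these cards, which may be technical.

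Stellate cells lie between hepatocytes and endothelium, store vitamin A in healthy liver, and on injury turn into myofibroblasts that deposit collagen. A miRNA acts through its seed, the bases near its 5' end that pair with target messenger RNAs. The genes Mir199a-2 and Mir214 lie on chromosome 1 inside the noncoding gene Dnm3os, which runs antisense within an intron of Dnm3, a dynamin gene. This transcript is known to be induced during mesenchymal differentiation, and both miRNAs are used as markers of activated fibroblasts.

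The mature sequences are shown because they decide which transcripts the assays can report. They are taken from RefSeq (GRCm38.p6), 5' to 3', with the seed, bases 2 to 8, in capitals. Both assay names were matched, the assay miR-214 to the 3p arm, for which miR-214 is the older name.
miR-199a-3p: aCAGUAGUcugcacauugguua
miR-199b-3p: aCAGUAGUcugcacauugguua
miR-214-3p: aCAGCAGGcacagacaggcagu
miR-199a-5p: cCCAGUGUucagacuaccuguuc
The 22-base sequence of miR-199a-3p is encoded at 3 loci, Mir199a-2 on chromosome 1, Mir199a-1 on chromosome 9 within Dnm2, and Mir199b on chromosome 2 within Dnm1, where it is named miR-199b-3p. A Ct of the miR-199a-3p assay therefore cannot be assigned to 1 of these loci. The sequence of miR-214-3p is encoded only by Mir214 in this table. The seeds of the 2 miRNAs differ at 2 of 7 positions, positions 5 and 8 counted from the 5' end, so they belong to different seed families. No assay of the cards was matched by name to another miRNA with either seed.

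Both miRNAs were determined on 8 of 8 cards. In untreated liver the Ct of miR-199a-3p was 27.96 and 27.89. After CCl4 it was 28.41 and 27.80 (1 week), 26.57 and 28.78 (4 weeks), and 26.64 and 27.87 (8 weeks). For miR-214 the untreated cards gave a Ct of 28.32 and 28.30. The CCl4 cards gave 27.88 and 28.37 (1 week), 26.94 and 28 (4 weeks), and 26.87 and 27.89 (8 weeks). The lowest Ct values of each miRNA were thus on replicate 1 at 4 weeks and replicate 1 at 8 weeks, before the brightness of the cards is taken into account. Both were of intermediate brightness, with 56 and 58 of the 166 tested assays at a lower mean Ct. The other arm of the miR-199a hairpin, miR-199a-5p, was determined on 1 of 8 cards, an untreated one, at Ct 33.97, and allows no comparison.

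The cards differed in overall brightness, with mean Ct values between 27.5 and 29.8 over the 149 assays that were below Ct 35 on every card, the faintest being replicate 2 at 4 weeks. Between 193 and 235 assays were determined on a card. The level of an assay is given here as that card mean minus its Ct, a log2 scale on which 1 unit is about a doubling. After this centring, the replicate SD was 0.31 for miR-199a-3p and 0.33 for miR-214, against a median of 0.39 over the tested assays. The number of cards limits the precision.

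Hepatic miR-214 was higher in every CCl4 card than in both untreated cards, as were 13.3% of the tested assays. The untreated cards were at levels of 0.026 and -0.31. After CCl4 the levels were 0.89 and 0.23 (1 week), 1.31 and 1.77 (4 weeks), and 0.61 and 0.99 (8 weeks). The group means ± SD (n = 2 cards) were -0.14 ± 0.24, 0.56 ± 0.47, 1.54 ± 0.33 and 0.80 ± 0.27. The 4-week cards were the highest pair, above all other cards, as in 10.2% of the tested assays, and the 1-week and 8-week cards overlapped. At 4 weeks miR-214 rose 3.22-fold, a log2 difference of 1.69 (standard error 0.35), with a 95% interval of the fold from 1.82 to 5.69 (limma, adjusted p = 0.0110), in a comparison where 13.3% of assays were called higher. The call was lost without untreated replicate 2 (log2 difference 1.51, adjusted p = 0.0654) and without replicate 2 at 4 weeks (1.45, adjusted p = 0.0692). At 1 week the difference was 0.70 (standard error 0.35, adjusted p = 0.168) and at 8 weeks 0.94 (standard error 0.35, adjusted p = 0.172), and neither passed the threshold of 0.05. The 95% intervals of these differences reached from -0.13 to 1.52 and from 0.12 to 1.77 before adjustment.

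miR-199a-3p was also highest at 4 weeks. The untreated cards were at levels of 0.39 and 0.10. After CCl4 the levels were 0.36 and 0.80 (1 week), 1.68 and 0.99 (4 weeks), and 0.84 and 1.01 (8 weeks). The group means ± SD (n = 2 cards) were 0.24 ± 0.20, 0.58 ± 0.31, 1.34 ± 0.49 and 0.93 ± 0.12. The untreated and 1-week cards overlapped, as did the 4-week and 8-week cards. Both 4-week and both 8-week cards lay above the untreated ones, as in 33.7% and 28.3% of the tested assays. At 4 weeks miR-199a-3p rose 2.14-fold, a log2 difference of 1.10 (standard error 0.34), with a 95% interval of the fold from 1.23 to 3.71. This passed the threshold narrowly (limma, adjusted p = 0.0457), in a comparison where 13.3% of assays were called higher. This call was lost with several other scalings and in 7 of 8 fits that left out a card, the exception being replicate 2 at 4 weeks (1.44, adjusted p = 0.0451). Without replicate 1 at 4 weeks the difference was 0.75 (limma, adjusted p = 0.180). Blocking on the replicate number gave an adjusted p of 0.0635. The differences at 1 week, 0.33 (standard error 0.34, adjusted p = 0.447), and at 8 weeks, 0.68 (standard error 0.34, adjusted p = 0.238), did not pass.

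**Figure D1:**
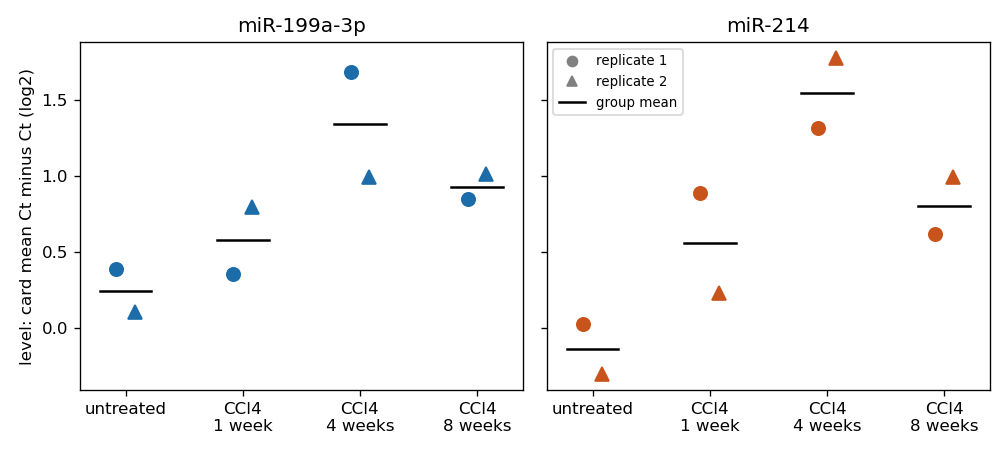
Level of each miRNA (card mean Ct minus Ct, log2) on each of the 8 cards; circles are replicate 1, triangles replicate 2 and bars group means. Both miRNAs have their highest group mean at 4 weeks (1.34 and 1.54) and their lowest in untreated liver (0.24 and -0.14).

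The order of the group means was the same for both miRNAs, 4 weeks, 8 weeks, 1 week and untreated, from high to low. No neighbours in this order differed past the threshold. Between 8 and 4 weeks the difference was -0.74 for miR-214 (limma, adjusted p = 0.267) and -0.41 for miR-199a-3p (adjusted p = 0.537). Between 8 weeks and 1 week it was 0.25 (adjusted p = 0.615) and 0.35 (adjusted p = 0.447). Between 4 weeks and 1 week both cards at 4 weeks lay above both at 1 week for each miRNA, as they did for 36.7% of the tested assays. That difference was 0.99 for miR-214 (95% interval from 0.16 to 1.81, limma adjusted p = 0.0521) and 0.76 for miR-199a-3p (-0.034 to 1.56, adjusted p = 0.0985). Thus a difference between the times was not established for either miRNA, although 21.7% of assays were called higher at 4 weeks than at 1 week, 10.2% higher at 8 weeks than at 1 week, and 0.602% lower at 8 weeks than at 4 weeks. These shares rest on single cards and on the scaling. The 36 assays called higher at 4 weeks than at 1 week were 9 and 14 without replicates 1 and 2 at 1 week, 7 without replicate 2 at 4 weeks, 72 with the control RNAs, 150 with U6 alone and 8 with snoRNA202 alone. The 17 called higher at 8 weeks than at 1 week were 2 and 3 without replicates 1 and 2 at 1 week and 1 without replicate 2 at 8 weeks, 46 with the control RNAs, 157 with U6 alone and 4 with snoRNA202 alone.

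Many other assays moved on these cards, and the values of both miRNAs are read against them. At 4 weeks 13.3% of the 166 tested assays were called higher, 16.9% lower and 30.1% in either direction. In the order of log2 differences from the highest, miR-214 was number 16 and miR-199a-3p number 36. At 1 week 32.5% were called, 18.1% higher and 14.5% lower, and the 2 miRNAs stood at 49 and 65. At 8 weeks 3.01% were called, 2.41% higher and 0.602% lower, and they stood at 24 and 42. The 5 calls at 8 weeks became 0 in limma without replicate 1 at 1 week, replicate 1 at 8 weeks or replicate 2 at 8 weeks (34, 45 and 27 with an unadjusted p under 0.05), 1 without either untreated card, and 2 without replicate 2 at 1 week. Non-overlap of the cards was frequent, since both treated cards lay above both untreated cards for 36.1% of assays at 1 week, 33.7% at 4 weeks and 28.3% at 8 weeks. The 3 comparisons share the 2 untreated cards.

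**Figure D2:**
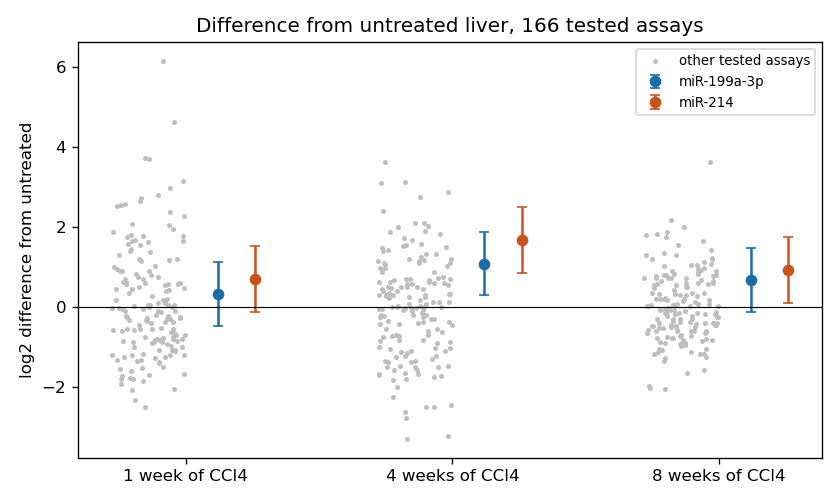
Log2 difference from untreated liver at each time for the 166 tested assays; grey points are the other assays, and coloured points with bars are the 2 miRNAs with 95% intervals from limma. Both miRNAs lie in the upper part of the distribution at 4 weeks (1.10 and 1.69), where their intervals exclude 0.

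Over the 3 CCl4 groups, miR-214 was higher by 1.11 on the log2 scale (standard error 0.29), a 2.16-fold difference (limma, adjusted p = 0.0264), and higher in 6 of 6 CCl4 cards. In this comparison 12.7% of tested assays were called higher, 21 assays, which became 12 without untreated replicate 1 and 5 without untreated replicate 2. The count was 10 with the mean of all determined assays, 40 with snoRNA202 alone, 9 with U6 alone and 1 without normalization. The call was lost with the mean of all determined assays as the scale (adjusted p = 0.148) and with their geometric mean (0.118), as well as without normalization and with U6 alone. For miR-199a-3p the difference was 0.70 (standard error 0.28, adjusted p = 0.102), with 5 of 6 CCl4 cards above both untreated cards, where 21.1% of the tested assays had at least 5. An exact two-sided permutation test over the 28 splits into 6 and 2 cards gave p = 0.0714 for miR-214 and p = 0.143 for miR-199a-3p, where the design allows no p below 0.0357. Adjusted over the 3 exact tests made, each p was 0.214. The limma call for miR-214 was lost when any of 5 cards was left out, with the adjusted p highest without untreated replicate 2 (0.169). The other such cards were untreated replicate 1 (adjusted p = 0.110), replicate 1 at 1 week (0.0590), replicate 2 at 4 weeks (0.0577) and replicate 2 at 8 weeks (0.0513).

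Because miR-214 and 1 of the 3 loci of miR-199a-3p share a host transcript, the balance of the 2 assays on each card was compared as the Ct of miR-199a-3p minus the Ct of miR-214. This quantity does not depend on the scaling of the card. Only its change is read, since a Ct difference between 2 assays is no ratio of amounts. The untreated cards were at -0.36 and -0.41. The CCl4 cards were at 0.53 and -0.57 (1 week), -0.37 and 0.78 (4 weeks), and -0.23 and -0.020 (8 weeks). The untreated cards were nearly equal, whereas the cards of a pair differed by over 1 cycle at 1 and 4 weeks, in opposite directions by replicate number. The mean was 0.020 over the CCl4 cards and -0.39 over the untreated cards, a difference of 0.41 cycles toward miR-214 (exact two-sided permutation test, p = 0.357, adjusted over the 3 exact tests p = 0.357). A shift in the balance of the 2 miRNAs with CCl4 was thus not detectable with these cards.

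**Figure D3:**
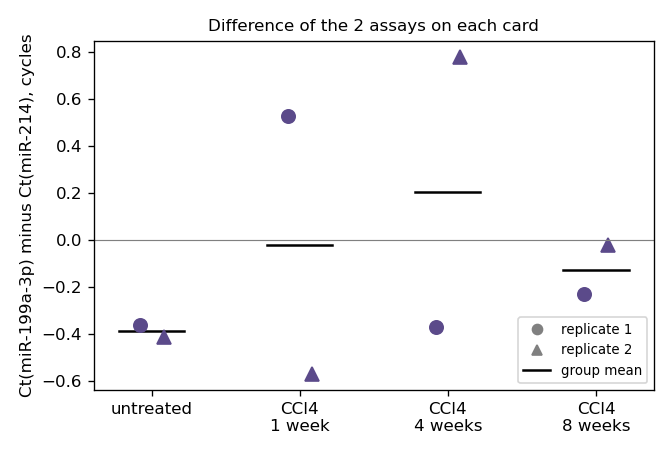
Ct of miR-199a-3p minus Ct of miR-214 (cycles) on each card; circles are replicate 1, triangles replicate 2 and bars group means. The untreated cards lie at -0.36 and -0.41, and the cards at 1 and 4 weeks spread from -0.57 to 0.78.

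Over the 8 centred cards the levels of the 2 miRNAs had a Pearson r of 0.71 and a Spearman rho of 0.79, given as a description of cards that share the centring and the group differences. Within groups the agreement was not uniform. From replicate 1 to replicate 2 both were lower in untreated liver and both higher at 8 weeks, but at 1 week miR-199a-3p was higher by 0.44 and miR-214 lower (-0.66), and at 4 weeks miR-199a-3p was lower (-0.69) and miR-214 higher by 0.46. Among the other 165 tested assays, miR-214 was number 10 in likeness to miR-199a-3p, and miR-199a-3p number 20 in likeness to miR-214.

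The assays whose levels over the 8 cards were most like miR-214 were miR-15b (Pearson r = 0.898) and miR-497 (r = 0.897), which carry the miR-15/16 seed, miR-132 (r = 0.871), miR-532-3p (r = 0.848) and the myeloid miR-223 (r = 0.820). Those most like miR-199a-3p were miR-27a (r = 0.878), miR-15b (r = 0.860), the haematopoietic miR-142-3p (r = 0.843), miR-132 (r = 0.838) and miR-25 (r = 0.822). The lists share 2 assays, miR-15b and miR-132. At 4 weeks miR-15b rose by 2.40 and miR-132 by 2.10 on the log2 scale (limma, adjusted p = 0.0087 and 0.0046). miR-27a, the most like miR-199a-3p, stood at 0.62 at 4 weeks (adjusted p = 0.155).

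Other miRNAs of mesenchymal cells were set beside them. Of 12 listed, 10 were tested, and 0 were called higher than in untreated liver at 1, 4 or 8 weeks (limma, adjusted p of 0.05), against 18.1%, 13.3% and 2.41% of all tested assays, so that few calls would be expected among 10 assays. At an unadjusted p of 0.05 the count was likewise 0, while 5, 2 and 1 were lower. Of all 166 tested assays, 73, 73 and 40 passed that limit in either direction. Under the other scalings, 2 were called higher at 4 weeks with U6 alone, 1 at 1 week with snoRNA202 alone, and 0 with the rest. At 1 week 1 was called lower, against 9 with U6 alone and 2 with the mean or the geometric mean of all determined assays. The median at 1 week was -3.21 with U6 alone and 0.56 with snoRNA202 alone. Between 4 weeks and 1 week 2 were called higher, miR-125b-5p (1.95, adjusted p = 0.0218) and miR-10a (0.97, adjusted p = 0.0436), where 21.7% of all assays were. Between 8 weeks and 1 week 1 was, miR-10b (1.46, adjusted p = 0.0428), where 10.2% of all assays were. Their median difference from untreated liver was -0.83, -0.24 and -0.14 at the 3 times, against -0.090, 0.028 and -0.040 over all tested assays. The smooth muscle miRNAs miR-143 and miR-145 stood at -0.34 (adjusted p = 0.354) and 0.33 (adjusted p = 0.520) at 4 weeks. The largest positive difference at 4 weeks was 0.71, for miR-125b-5p (standard error 0.52, adjusted p = 0.323), below both miR-199a-3p and miR-214. A shift common to a card cannot change this order, which also held with quantile normalization, where the highest of the 10 was at 0.99 and miR-199a-3p at 1.12. The gaps between assays were not tested. With a standard error of 0.34 for miR-199a-3p (1.10) and 0.52 for miR-125b-5p, their order at 4 weeks is not established. With the endogenous control RNAs the median of the 10 at 4 weeks was above 0, at 0.40. The faint miR-218 stood at 1.15 at 1 week (adjusted p = 0.397) and -1.36 at 4 weeks (adjusted p = 0.353), with a standard error of 1.06. miR-10b, encoded in a Hox cluster, fell by 1.33 at 1 week (adjusted p = 0.0483), and miR-152, of the miR-148 family, fell by 1.23 at 4 weeks (adjusted p = 0.0204). Of all tested assays, 14.5% and 16.9% were called lower at these times. At 1 week 0 of the 10 were called lower without normalization and with snoRNA135 or snoRNA202 alone. At 4 weeks 0 were with the geometric mean of all determined assays, the control RNAs, no normalization and each single control RNA. With each assay set to its own untreated mean on a linear scale, the average over the 10 lay between 0.994 and 1.01 on the untreated cards. This list level was 0.723 to 0.822 after 1 week, 0.871 to 0.956 after 4 weeks, and 0.801 to 0.963 after 8 weeks. In bulk liver RNA, more cells of a type and more of a miRNA per cell cannot be told apart, and the cells that held either miRNA are not identified.

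**Figure D4:**
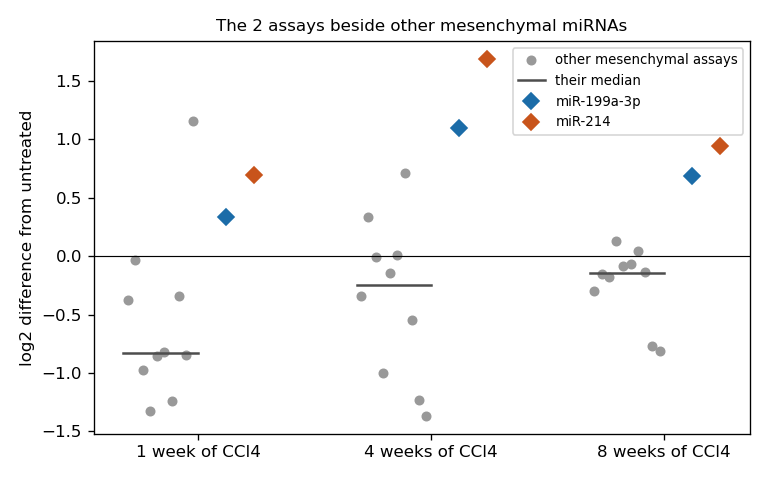
Log2 difference from untreated liver at each time for miR-199a-3p, miR-214 and the 10 other tested mesenchymal miRNAs (grey points, with their median as a bar). At 4 and 8 weeks both miRNAs lie above all 10, whose highest values are 0.71 and 0.13. The gaps between assays were not tested.

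A list of other miRNAs reported to change when stellate cells are activated held calls in both directions. Of 17 listed, 16 were tested, and the counts are read against the shares over all assays given above. At 1 week 4 were called higher, the p53 target miR-34a (1.56), miR-222 (1.20), miR-335-5p (1.21) and miR-31 (0.90), and 3 lower, the collagen-targeting miR-29b (-2.50) and miR-29c (-1.20), and miR-30a (-1.23), where 18.1% of all assays were called higher and 14.5% lower. These 4 and 3 became 1 and 3 with the mean of all determined assays and with the control RNAs, 0 and 11 with U6 alone, and 7 and 0 with snoRNA202 alone. At 4 weeks miR-34a (1.44) was called higher, and miR-29a (-1.21), miR-29c (-1.99), miR-30c (-1.69) and miR-31 (-1.24) lower. This balance of 1 higher and 4 lower turned with the scaling, to 4 and 1 with the control RNAs, 3 and 2 with quantile normalization and 5 and 0 with U6 alone. At 8 weeks miR-34a (1.66) alone was called, where no member was called higher with the mean or the geometric mean of all determined assays, quantile normalization, no normalization or snoRNA135 alone. The median of the list was -0.093, -0.41 and -0.39 at the 3 times, and at 4 weeks 0.23 with the control RNAs and 1.09 with U6 alone. Its list level was 0.939 to 1.06 in untreated liver and 1.28 to 3.01 after 1 week. As a linear average, the 1-week level gives much weight to the largest difference of the list, that of miR-133a. A plain sum of the same 16 assays, relative to its untreated mean, was 0.837 to 0.871 after 1 week. The list as a whole thus did not rise at 1 week. After 4 weeks the list level was 0.989 to 1.04, and after 8 weeks 0.958 to 1.05. miR-21, an abundant miRNA of injured tissue, stood at 0.60 at 4 weeks (adjusted p = 0.240), and miR-133a, a muscle miRNA, at 3.70 at 1 week with a standard error of 1.49 (adjusted p = 0.0949). The largest value of the list at 4 weeks was 1.54, for miR-181a (standard error 0.59, limma adjusted p = 0.0835). It lay between those of miR-199a-3p (1.10) and miR-214 (1.69).

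Markers of other liver cells moved at the same times. Of 6 leukocyte miRNAs, 5 were called higher at 1 week and 4 at 4 weeks (18.1% and 13.3% of all tested assays), with miR-223 at 2.77 and miR-142-3p at 2.00 at 4 weeks (adjusted p = 0.0017 and 0.0053). The member not called at 1 week was miR-142-3p (-0.20, limma adjusted p = 0.647). Those not called at 4 weeks were miR-150 (0.13, adjusted p = 0.790) and miR-146a (0.99, adjusted p = 0.146). At 8 weeks 0 of the 6 were called in limma, and 3 had an unadjusted p under 0.05, as had 40 of all 166 tested assays in either direction. With the mean of all determined assays as the scale, 2 were called at 1 week and 2 at 4 weeks, and without normalization 0 were. With U6 alone 0 were called higher and 1 lower at 1 week, and 6 higher at 4 weeks. At 8 weeks 3 were called higher with U6 alone, and 1 with quantile normalization or the control RNAs. Their list level was 0.892 to 1.11 in untreated liver, 2.89 to 3.08 after 1 week, 2.80 to 3.50 after 4 weeks and 1.47 to 1.85 after 8 weeks. Of 7 hepatocyte miRNAs, 6 were called lower at 4 weeks, among them miR-802 (-3.28) and miR-193 (-3.22), and 1 at 1 week and 1 at 8 weeks, miR-802 at both. Of all tested assays, 16.9%, 14.5% and 0.602% were called lower at 4, 1 and 8 weeks. The hepatocyte count at 4 weeks was 4 with snoRNA202 alone and 2 with U6 alone, at 1 week 7 with U6 alone, and at 8 weeks 0 with the mean of all determined assays. Their list level was 0.962 to 1.04 in untreated liver, 0.507 to 0.585 after 1 week, 0.278 to 0.283 after 4 weeks and 0.494 to 0.530 after 8 weeks. miR-122, the most characteristic miRNA of hepatocytes, was determined on every card, with Ct values from 21.95 to 24.16. Its differences were -1.20 at 1 week (adjusted p = 0.0949), -0.23 at 4 weeks (adjusted p = 0.740) and 0.088 at 8 weeks (adjusted p = 0.921), an order unlike that of the list. The endothelial miR-126-3p (-1.83) and miR-126-5p (-1.65) were called lower at 4 weeks, with a list level of 0.234 to 0.379, against 1.30 to 1.31 at 1 week. Neither was called with quantile normalization (median -0.89), the control RNAs (-1.10), no normalization (-2.58), U6 alone (-0.23) or snoRNA202 alone (-1.34). The 2 tested of 3 erythroid and the 4 tested of 5 epithelial miRNAs had no call against untreated liver in limma. At an unadjusted p of 0.05, 0 erythroid miRNAs passed, and 1 epithelial miRNA did at 4 and at 8 weeks. Of all 166 tested assays, 73 and 40 did so at these 2 times. Calls appeared with a single control RNA as the scale. At 1 week 2 erythroid and 3 epithelial miRNAs were called lower with U6 alone, and 1 and 3 higher with snoRNA202 alone. With U6 alone, 1 erythroid and 1 epithelial miRNA were called higher at 4 weeks, and 1 erythroid miRNA at 8 weeks. The medians of the erythroid and epithelial lists at 4 weeks were 0.18 and -0.52, and their list levels then 1.10 to 1.24 and 0.60 to 0.85. The part of these changes in the rise of miR-199a-3p and miR-214 was not tested.

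The size of the rise depended on the scaling of the cards, and its direction at 4 and 8 weeks did not under any of the scalings tried. At 4 weeks miR-214 ranged from 0.84 without normalization to 3.19 with U6 alone, and miR-199a-3p from 0.25 to 2.60 under the same scalings. At 1 week the sign of miR-199a-3p turned with a centring on every determined assay of the card (-0.029), which is closer to the normalization the methods describe, and both miRNAs turned with U6 alone (-2.05 for miR-199a-3p and -1.68 for miR-214). U6 itself, a small nuclear RNA used as a reference, had a Ct of 18.42 and 17.24 in untreated liver. Its Ct was 15.76 and 16.17 after 1 week of CCl4, 19.47 and 20.89 after 4 weeks, and 17.74 and 20.17 after 8 weeks.

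**Figure D5:**
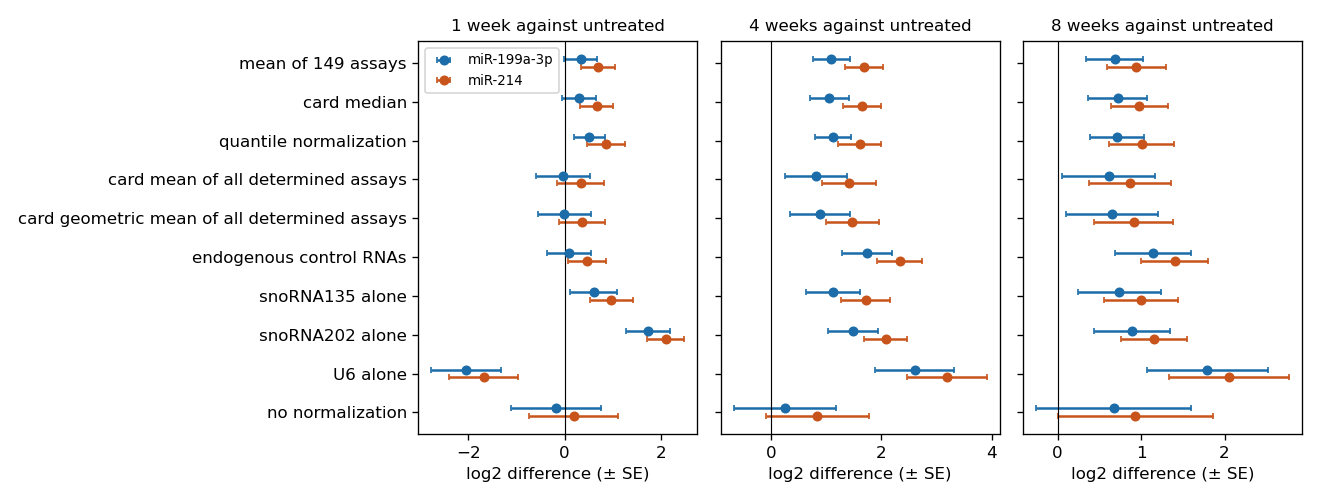
Log2 difference from untreated liver (± standard error, limma) of both miRNAs at 1, 4 and 8 weeks under 10 scalings of the cards, from the mean of 149 assays used here to no normalization; each panel has its own horizontal scale. At 4 and 8 weeks every point lies above 0, and at 1 week the points run from -2.05 to 2.09.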

How the data were processed

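The authors deposited the Ct values of 8 TaqMan cards without normalization and not pooled, with empty cells where no Ct was determined. Liver total RNA went into the cards with no amplification step ahead of the PCR. The software that set the threshold is not given in the sources used here. A table of the authors' fold changes to untreated liver, made with DataAssist after geometric mean normalization, was not used. Groups and replicate numbers come from the labels. No genome build goes with the values, so no positions are given.

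A card was centred by taking its mean Ct over 149 assays, those that stayed under Ct 35 throughout, and subtracting each Ct from it. For the tests, limma (version 3.58.1, R version 4.3.3) was run on 166 assays with a Ct on all cards and an average Ct under 35. One linear model held the 4 groups, its variances moderated by eBayes (3.47 prior degrees of freedom), with Benjamini-Hochberg adjustment over these assays within each comparison at 0.05. Exact permutation tests were two-sided. The procedure was tested on simulated cards with independent noise for each assay and no difference in brightness between cards. This does not probe the scaling of the cards or the dependence on single cards. The marker lists and the rule for the miRNAs named (the list members with the largest differences, the assays that passed, and the 5 assays most like each miRNA by Pearson r) were, like the miRNAs themselves, chosen with earlier results of these data known. miR-143, miR-145, miR-21, miR-181a, miR-150, miR-146a and the further called list members were named after their values were seen. Alternatives were other scalings, other Ct limits (a mean Ct below 32, or none), undetermined values set to Ct 40, fits restricted to the groups being compared, an eBayes trend, the replicate number as a block, an adjusted p of 0.10, and each card left out. The scalings to a single control RNA and the crossed block were added after the data were seen, as was the list level, an average of assays each set to its own untreated mean, since a plain sum would weight assays by their Ct. Plots were drawn with matplotlib 3.10.9.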

Additional observations from a re-analysis of the deposited data

How the results depend on the processing

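The cause of these changes was not tested, and adjusted p-values are from limma. miR-214 at 4 weeks (1.69) kept its call under every planned setting with all cards except no normalization (0.84, adjusted p = 0.629). miR-199a-3p at 4 weeks (1.10) lost its call with the card median (1.06), the card mean (0.82) and the geometric mean (0.89) over all determined assays, quantile normalization (1.12), no normalization (0.25) and snoRNA135 alone (1.13). With the value unmoved at 1.10, it was also lost with undetermined values set to Ct 40 (adjusted p = 0.0735), only the groups compared (0.0939) and the replicate block (0.0635). The adjusted p over its alternatives reached 0.872. With any CCl4 (1.11), miR-214 lost its call with the card mean (0.87), the geometric mean (0.91), no normalization (0.65) and U6 alone (1.19).

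At 1 week, miR-199a-3p (0.33) was -0.029 with the card mean, -0.012 with the geometric mean, -0.18 without normalization and -2.05 with U6 alone, and miR-214 (0.70) was -1.68 with U6 alone; both U6 values passed the threshold. With snoRNA202 alone they were 1.73 and 2.09, past the threshold, and miR-199a-3p with any CCl4 was 1.37, also past it. With U6 alone, miR-214 at 8 weeks was 2.06, past the threshold. Between 8 and 4 weeks, values without normalization were 0.42 for miR-199a-3p and 0.090 for miR-214. Between 4 weeks and 1 week, miR-214 (0.99) passed with the card median (0.98), the control RNAs (1.87), a mean Ct below 32 (0.99), a trend (0.99), an adjusted p of 0.10 (0.99) and U6 alone (4.87), and was -0.010 with snoRNA202 alone. miR-199a-3p (0.76) passed with the control RNAs (1.65), an adjusted p of 0.10 (0.76) and U6 alone (4.65), and was -0.24 with snoRNA202 alone. Between 8 weeks and 1 week, they were 3.84 and 3.74 with U6 alone, past the threshold, and -0.83 and -0.94 with snoRNA202 alone. The exact two-sided permutation test with any CCl4 gave p = 0.0357 for miR-214 with quantile normalization (1.16), snoRNA135 alone (1.23) and snoRNA202 alone (1.78), and for miR-199a-3p with snoRNA202 alone (1.37).

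The median log2 difference over all tested assays at 1, 4 and 8 weeks was -0.090, 0.028 and -0.040 as reported, -0.45, -0.25 and -0.11 with the card mean, -0.33, 0.67 and 0.42 with the control RNAs, -0.60, -0.82 and -0.053 without normalization, -2.48, 1.54 and 1.09 with U6 alone, and 1.31, 0.43 and 0.19 with snoRNA202 alone. With U6 alone the leukocyte median at 1 week was -0.67, and with snoRNA202 alone the hepatocyte median at 1 week was 0.60. At 4 weeks 22 assays were called higher and 28 lower, 45 and 11 with the control RNAs, 80 and 2 with U6 alone, 33 and 10 with snoRNA202 alone, and 1 and 9 without normalization. At 1 week 30 were higher and 24 lower, against 2 and 124 with U6 alone, 81 and 0 with snoRNA202 alone, 34 and 8 with snoRNA135 alone and 18 and 33 with the card mean. The total at 4 weeks (50) was 22 without untreated replicate 2 and 31 without replicate 2 at 4 weeks. At 1 week (54) it was 17 without untreated replicate 1, and 28 and 24 without replicates 1 and 2 at 1 week. The number of assays called at 8 weeks (5) was 40 with U6 alone. It was 0 in fits restricted to the groups compared (32 with an unadjusted p under 0.05) and with Ct 40 for undetermined values (42 unadjusted).

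With each card left out in turn, miR-199a-3p ranged from 0.11 to 0.58 at 1 week, 0.75 to 1.44 at 4 weeks, 0.53 to 0.80 at 8 weeks and 0.55 to 0.80 with any CCl4 (0.55 to 0.81 for the exact test). miR-214 ranged from 0.39 to 1.03, 1.45 to 1.92, 0.76 to 1.13 and 0.93 to 1.23 (0.92 to 1.24). Between 4 weeks and 1 week the ranges were 0.42 to 1.18 and 0.63 to 1.27, between 8 weeks and 1 week 0.095 to 0.56 and -0.098 to 0.54, and between 8 and 4 weeks -0.76 to -0.068 and -0.97 to -0.52. A card left alone in its group is assumed to vary like the others. The within-card difference ranged from 0.25 to 0.52.

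The labels tie no cards by number to a run or day. Between the replicate differences of the untreated cards and of the 1-week, 4-week and 8-week cards, r across assays was 0.10, -0.39 and -0.50. It was 0.034 between 1 and 4 weeks, 0.0017 between 1 and 8 weeks and 0.43 between 4 and 8 weeks. With the replicate block the counts of calls were 50, 49 and 4, and with the untreated numbers crossed 74, 65 and 17. The block changed no call of either miRNA other than that of miR-199a-3p at 4 weeks. The within-card difference was 0.34 in replicate 1 and 0.47 in replicate 2, 0.41 with the block.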
